A study of Mus musculus with 6 samples.

Results

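The 10 genes described here, *Pecam1*, *Cdh5*, *Kdr*, *Flt1*, *Tek*, *Tie1*, *Emcn*, *Egfl7*, *Cldn5* and *Vwf*, are genes of the endothelium, the cell layer that lines blood vessels. They were chosen by symbol, and all 10 were found among the 61880 rows and 53912 assembled loci of the deposited count matrix. RNA was sequenced from isolated mammary epithelial cells of 3 *fat-1* and 3 WT samples, each a pool of inguinal glands from several female FVB/NJ mice aged 6 to 8 weeks. The *fat-1* mice carry a roundworm *n*-3 desaturase that acts in the whole body, and the promoter that drives it is not given in the sources used here. Both genotypes ate the same modified AIN93G diet for life, with 10% fat by weight from safflower oil, a source of *n*-6 PUFA, so that the comparison asks how lifelong *n*-3 PUFA made by the mice themselves bears on these cells.

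The endothelium grows by VEGF, which binds the receptors VEGFR2 and VEGFR1, and is kept quiescent by angiopoietins, which bind TIE2. Endothelial cells hold to each other through VE-cadherin, claudin and PECAM1, and they store von Willebrand factor for clotting. In the mammary gland, capillaries surround the ducts and their end buds, and vessels grow together with the epithelium in puberty. The cells were isolated by enzymatic digestion after removal of lymph nodes, without a sort named in the labels, so that endothelial cells could remain in the isolate.

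A sample, also called a pool here, held 204539059 to 232148824 counts in total. Levels are given as CPM, counts scaled to the same normalized total in each sample, and, unless a row is named, as the sum over all rows of an assembled locus, since a gene's reads may be split over several rows by the assembly. Epithelial genes, led by *Krt8*, *Krt18* and *Epcam*, were present in every sample. The summed level of 10 luminal and basal genes lay between 742.7 and 3233 CPM, and it was higher in *fat-1* sample 1 (3233 CPM) and WT sample 1 (2535 CPM) than in the other 4 samples. Other cells were also present. The sum of 10 leukocyte genes, among them *Cd79a* and *Ptprc*, lay between 808.8 and 1963 CPM, highest in *fat-1* sample 2 and WT sample 3, and that of 8 fibroblast genes, led by *Dcn*, *Col1a2* and *Col3a1*, between 1631 and 6269 CPM, while 6 adipocyte genes, led by *Cfd*, *Cidec* and *Adipoq*, together reached at most 2.496 CPM. The loci of *Cd79a* and *Ptprc* also hold *Arhgef1* and *A130071D04Rik*, so the leukocyte sum includes rows of other genes. No gene of these 4 lists passed at an unadjusted *p* of 0.05 between genotypes by edgeR's quasi-likelihood test, beside 1.14% of all loci tested.

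Every one of the 10 endothelial genes was counted in every sample. Their summed level was 266.8, 303.0 and 292.5 CPM in *fat-1* pools 1 to 3, against 288.9, 344.0 and 333.2 CPM in WT pools 1 to 3. It varied 1.29-fold over the 6 samples, beside 4.35-fold for the epithelial, 3.84-fold for the fibroblast and 2.43-fold for the leukocyte genes. Each single gene varied more than this sum, from 1.38-fold for *Egfl7* to 2.85-fold for *Vwf*. *Pecam1* and *Cdh5*, with means of 86.56 and 83.25 CPM, weigh most in the sum, so it does not describe each gene. The ranges of both genotypes overlapped. In RNA from a mixture of cells, fewer endothelial cells and less RNA per endothelial cell cannot be told apart.

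With edgeR's quasi-likelihood test and Benjamini–Hochberg adjustment over 24061 loci, 0 of the 10 genes and 0 loci in all (0% of those tested) passed at an adjusted *p* of 0.05. At the unadjusted threshold there were 0 of the 10 genes and 274 loci (1.14%). DESeq2 and edgeR's exact test called 8 and 6 loci after adjustment, none of them an endothelial gene of this list, and also gave 0 of the 10 genes at the unadjusted threshold. Leaving out 1 sample at a time gave, by locus sums, 0 to 3 of the 10 genes at that threshold, all lower in *fat-1*. Without WT sample 3 there were 3 (*Cdh5*, *Tek* and *Emcn*), beside 2.19% of loci in that fit. Without *fat-1* sample 1 there were 2 (*Emcn* and *Vwf*), beside 1.96% of loci, and without WT sample 1 there was 1 (*Tie1*), beside 1.28%. The log2 fold change of *fat-1* relative to WT was below 0 for 8 of the 10 genes, beside 49.4% of all loci tested, with a median of −0.22 for the 10 genes and 0.0018 for all loci. This median was −0.12 without WT sample 2 and lay between −0.26 and −0.18 when any other sample was left out. A shift of this size was not particular to the endothelial genes. All 8 fibroblast genes were below 0, with a median of −0.215, while 4 of 10 epithelial, 0 of 10 leukocyte and 3 of 6 adipocyte genes were. In 3 of the 10 genes, *Cdh5*, *Tek* and *Tie1*, every *fat-1* sample was below every WT sample, beside 2.36% of all loci tested. No gene of the list showed the opposite order, which 1.79% of loci did. The 10 genes were measured in the same 6 samples and are not independent replicates.

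**Figure D1:**
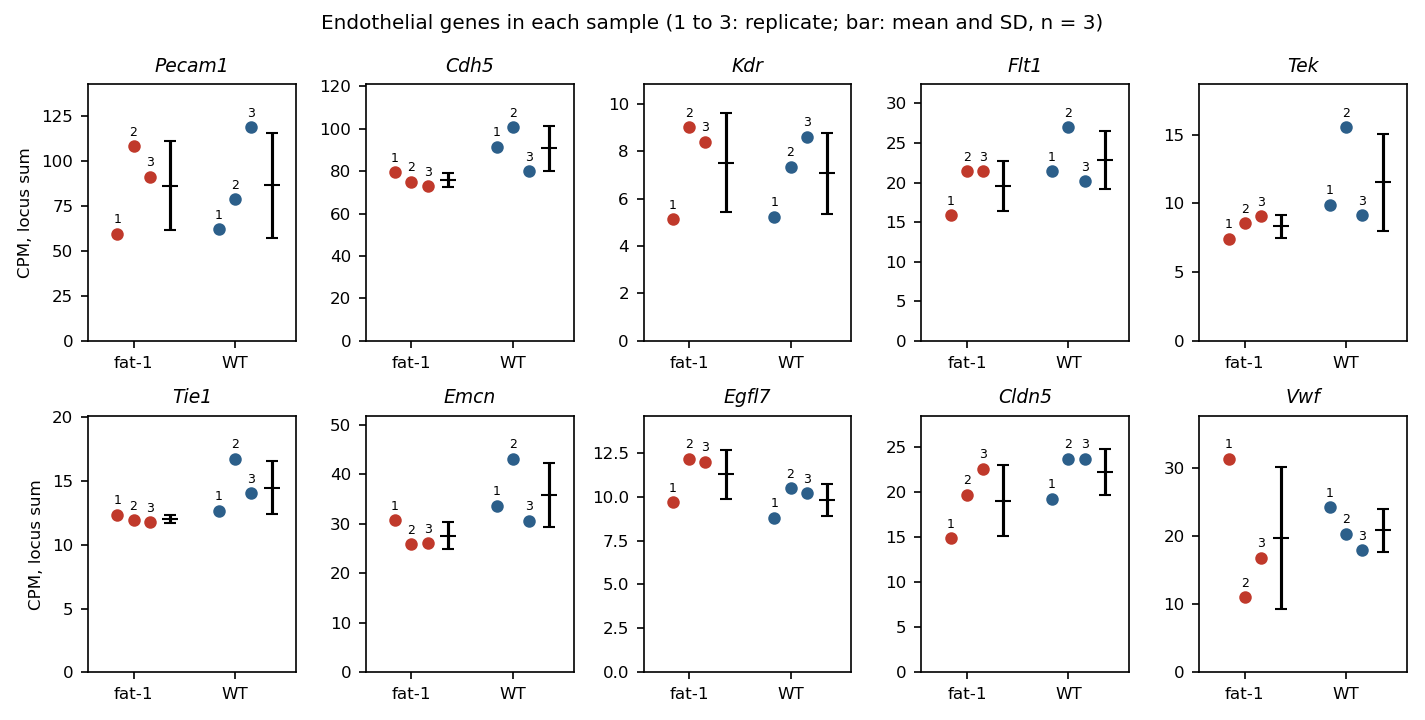
Level of each endothelial gene (CPM, summed over the rows of its locus, y axis from 0) in the 3 *fat-1* (red) and 3 WT (blue) samples, numbered by replicate, with the mean and SD of each genotype in black. In *Cdh5*, *Tek* and *Tie1* the *fat-1* samples lie below the WT samples, by narrow gaps, while *Pecam1*, *Kdr* and *Vwf* vary more within a genotype than between genotypes.

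The genes of the angiopoietin receptor TIE2 and of its co-receptor were lower in every *fat-1* sample than in every WT sample. *Tek* had the most negative log2 fold change of the list. *Tek* encodes TIE2, the receptor of the angiopoietins (chromosome 4, 94739289 to 94874976, plus strand, GRCm38). It had 7.438, 8.553 and 9.068 CPM in the *fat-1* pools, against 9.909, 15.54 and 9.121 CPM in the WT pools. WT sample 2 was far above the rest, and the genotypes were separated by the small gap between *fat-1* sample 3 and WT sample 3. The means were 8.35 ± 0.833 and 11.5 ± 3.50 CPM (SD, *n* = 3), a log2 fold change of −0.46 (standard error 0.23; edgeR quasi-likelihood adjusted *p* = 1). Without WT sample 2 it was −0.19. A two-sided exact permutation test gave *p* = 0.1, the smallest that 3 against 3 samples allow.

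*Tie1* encodes the co-receptor of TIE2 (chromosome 4, 118471191 to 118490061, minus strand). It had 12.35, 11.93 and 11.77 CPM in the *fat-1* pools, against 12.64, 16.72 and 14.01 CPM in the WT pools. The *fat-1* samples were close together and all lower, and WT sample 2 was again the highest. The means were 12.0 ± 0.302 and 14.5 ± 2.08 CPM (SD, *n* = 3). The log2 fold change of *Tie1* was −0.27 (standard error 0.14; exact permutation *p* = 0.1, two-sided), and −0.15 without WT sample 2.

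*Emcn* encodes endomucin, a mucin on the surface of capillary and venous endothelium (chromosome 3, 137341067 to 137432185, plus strand). It had 30.74, 25.94 and 26.08 CPM in the *fat-1* pools, against 33.69, 43.14 and 30.63 CPM in the WT pools. The groups overlapped only in that *fat-1* sample 1 was just above WT sample 3. The means were 27.6 ± 2.73 and 35.8 ± 6.52 CPM (SD, *n* = 3). The log2 fold change of *Emcn* was −0.38 (standard error 0.16; unadjusted *p* = 0.0522 and adjusted *p* = 1, edgeR quasi-likelihood test), and −0.22 without WT sample 2.

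The starts of *Tek* and *Emcn*, which had the most negative log2 fold changes of the 10 genes, are shown with the letters CAGGAA and CCGGAA. Both are among the sets of letters that ETS factors are known to bind, the family of ERG, which acts in endothelial cells. Each sequence is the 250 bases before the RefSeq start of the gene (GRCm38.p6), 5′ to 3′ on the gene's strand, with each match to CAGGAA or CCGGAA, or to its reverse complement, in capitals.
Tek, chr4:94739039-94739288, plus strand: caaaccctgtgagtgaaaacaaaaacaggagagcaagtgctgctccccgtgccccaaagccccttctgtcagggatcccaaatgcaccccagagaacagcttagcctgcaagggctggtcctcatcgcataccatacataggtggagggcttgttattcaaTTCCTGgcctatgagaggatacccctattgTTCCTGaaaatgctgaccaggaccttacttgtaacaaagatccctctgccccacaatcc
Emcn, chr3:137340828-137341077, plus strand: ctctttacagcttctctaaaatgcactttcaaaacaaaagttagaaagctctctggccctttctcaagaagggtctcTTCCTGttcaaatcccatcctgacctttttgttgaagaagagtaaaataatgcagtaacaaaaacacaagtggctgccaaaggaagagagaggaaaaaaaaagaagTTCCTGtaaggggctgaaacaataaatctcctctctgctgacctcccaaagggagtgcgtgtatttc

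*Tek* and *Emcn* each held 2 matches, and the window of *Tie1*, most of which GENCODE places in its first exon, held 1, all on the strand opposite to the gene and all to CAGGAA. Of the 7 genes of the list with such a window (*Pecam1*, *Cdh5* and *Vwf* had none), 5 held a match. Counted by window, 6 of 9 held a match, 3 of the 9 being windows of *Egfl7*, beside 35.1% of 32851 windows of all genes. The windows of *Flt1* and *Cldn5* held neither CAGGAA nor CCGGAA. The *Flt1* window does hold GGAA, which both sets share, and other letters that ETS factors bind were not searched for. The longer AACAGGAA, which contains CAGGAA and resembles a joint site of forkhead and ETS factors, was found in 2 of the 9 windows, that of *Emcn* and 1 of *Egfl7*, beside 2.25% of all windows. Such matches describe letters only.

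The junction genes had the highest levels per length. Levels divided by the exonic length of each gene (GENCODE M21, all transcripts joined) put *Cdh5* first, with 17.33 to 23.96 CPM per kilobase over the 6 samples. *Cldn5* (10.52 to 16.74 CPM per kilobase) and *Pecam1* (9.586 to 19.09 CPM per kilobase) followed and overlapped each other. The range of *Pecam1* also overlapped that of *Cdh5*, and in WT sample 3 *Pecam1* was just above *Cdh5*, 19.09 against 19 CPM per kilobase. *Emcn* came next, with 4.796 to 7.976 CPM per kilobase, apart from the genes above and below it. Below it, each gene overlapped its neighbours, in the order of *Egfl7*, *Tie1*, *Tek*, *Flt1*, *Vwf* and *Kdr*, whose mean was 0.807 CPM per kilobase. The locus sums of *Pecam1*, *Cdh5* and *Egfl7* include rows without a symbol, and that of *Egfl7* also rows of other genes, so the order of those 3 genes depends on what these rows hold.

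*Cdh5* encodes VE-cadherin of the adherens junctions (chromosome 8, 104101625 to 104144511, plus strand). Its locus had 79.52, 75.05 and 72.82 CPM in the *fat-1* pools, against 91.52, 100.7 and 79.85 CPM in the WT pools. The genotypes did not overlap, but *fat-1* sample 1 and WT sample 3 differed little, and on the deposited totals without normalization these samples crossed. The means were 75.8 ± 3.41 and 90.7 ± 10.5 CPM (SD, *n* = 3). The log2 fold change of *Cdh5* was −0.26 (standard error 0.11; unadjusted *p* = 0.0541 and adjusted *p* = 1, edgeR quasi-likelihood test). *Cldn5*, a claudin of tight junctions and a gene of a single exon (chromosome 16, 18776847 to 18778262, plus strand), had 14.90, 19.69 and 22.60 CPM in the *fat-1* pools, against 19.25, 23.70 and 23.69 CPM in the WT pools. The genotypes overlapped, and the log2 fold change of *Cldn5* was −0.22 (standard error 0.18), −0.063 without *fat-1* sample 1 and −0.36 without *fat-1* sample 3.

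*Pecam1* encodes PECAM1 (CD31), an adhesion protein of endothelial junctions that leukocytes and platelets also carry (chromosome 11, 106654217 to 106750628, minus strand). It had 59.70, 108.2 and 91.47 CPM in the *fat-1* pools, against 62.06, 78.95 and 118.9 CPM in the WT pools. Each genotype held a low sample 1 and a sample far above it, and the means were alike, 86.5 ± 24.7 and 86.7 ± 29.2 CPM (SD, *n* = 3). The log2 fold change of *Pecam1* was −0.0030 (standard error 0.30). The samples with the most *Pecam1*, WT sample 3 and *fat-1* sample 2, were those with the highest sums of the 10 leukocyte genes, 1963 and 1863 CPM, and those with the least *Pecam1* had 808.8 and 817.3 CPM. The part of leukocytes in the *Pecam1* level was not tested.

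The VEGF receptors differed less between genotypes than between samples. *Kdr* encodes VEGFR2, the main signalling receptor of VEGF-A (chromosome 5, 75932827 to 75978458, minus strand). It had 5.125, 9.005 and 8.395 CPM in the *fat-1* pools, against 5.240, 7.350 and 8.605 CPM in the WT pools. Sample 1 of each genotype was low, as in *Pecam1*, and the log2 fold change of *Kdr* was 0.09 (standard error 0.28). *Flt1* encodes VEGFR1, which binds VEGF-A tightly and limits what reaches VEGFR2 (chromosome 5, 147561604 to 147726011, minus strand). It had 15.89, 21.44 and 21.43 CPM in the *fat-1* pools, against 21.41, 26.99 and 20.19 CPM in the WT pools. *fat-1* sample 1 was the lowest and WT sample 2 the highest, the other 4 were close together, and the log2 fold change of *Flt1* was −0.22 (standard error 0.18), and either *fat-1* sample 1 (−0.082) or WT sample 2 (−0.087) left out brought it nearer to 0.

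*Vwf* encodes von Willebrand factor, a clotting protein of endothelial cells and megakaryocytes (chromosome 6, 125546774 to 125686679, plus strand). It had 31.43, 11.04 and 16.85 CPM in the *fat-1* pools, against 24.34, 20.38 and 18.01 CPM in the WT pools. Both the highest and the lowest value were in *fat-1* samples, a 2.85-fold range that was the widest of the 10 genes. The log2 fold change of *Vwf* was −0.08 (standard error 0.37), and it was −0.58 without *fat-1* sample 1 (unadjusted *p* = 0.0437 and adjusted *p* = 1, edgeR quasi-likelihood test) and 0.21 without *fat-1* sample 2. Within each genotype the samples ranked by *Vwf* as they did by the summed epithelial genes, which were 3233, 742.7 and 1332 CPM in the *fat-1* pools, against 2535, 1495 and 765.5 CPM in the WT pools. Of the megakaryocyte and platelet genes, *Gp9* had at most 0.137 CPM and *Gp6* and *Treml1* at most 0.0778 and 0.0521 CPM, while *Pf4* had 1.162 to 3.430 CPM and *Itga2b* 7.593 to 10.60 CPM. *Ppbp*, whose locus also holds *Cxcl5*, had 125.5 to 592.4 CPM, and both it and *Pf4* were lowest in *fat-1* sample 1. *Gp1ba*, of the platelet receptor for von Willebrand factor, had 2.086, 0.946 and 1.192 CPM in the *fat-1* pools, against 1.365, 0.936 and 1.104 CPM in the WT pools, so that sample 1 of each genotype was the highest, as in *Vwf*. None of the 5 tested genes of that list passed at the unadjusted threshold by edgeR, beside 1.14% of loci, and their part in the *Vwf* level was not tested.

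**Figure D2:**
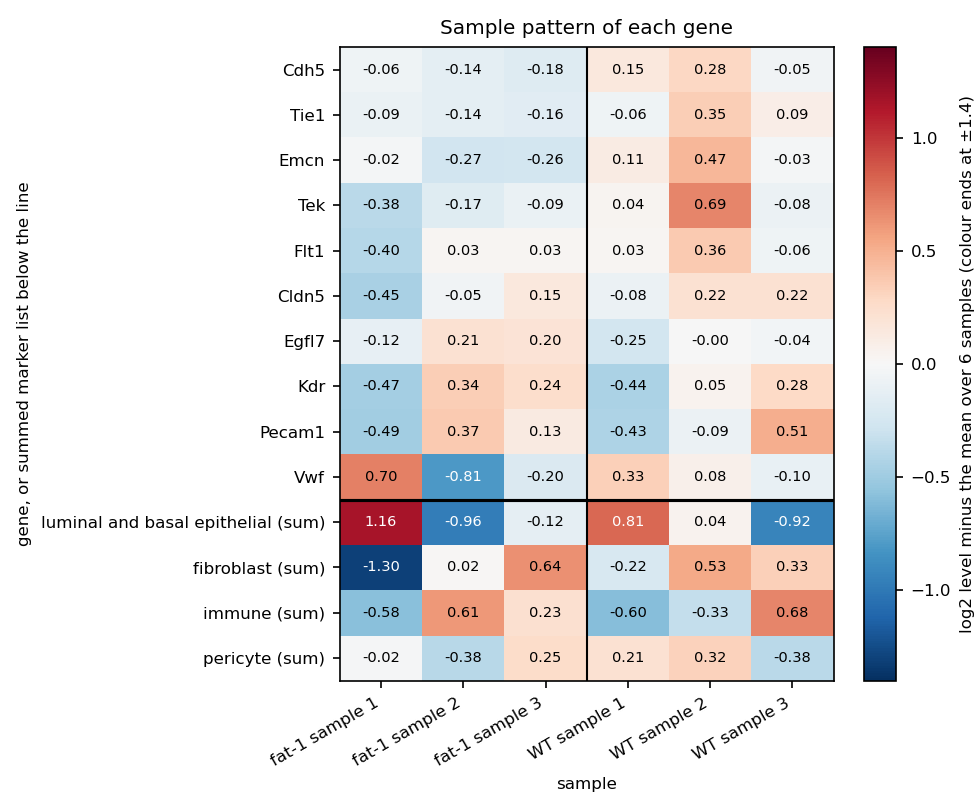
Log2 level of each endothelial gene in each of the 6 samples minus its mean over the samples, with the summed levels of 4 marker lists of other cell types below the line; genes were ordered after their values were seen. *Pecam1* and *Kdr* are low in sample 1 of both genotypes, where the epithelial sum is high, *Vwf* is highest in *fat-1* sample 1, and *Tek*, *Emcn*, *Flt1* and *Tie1* are highest in WT sample 2.

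The 10 genes therefore did not rise and fall together over the samples. WT sample 2 had the highest level of 6 genes (*Cdh5*, *Flt1*, *Tek*, *Tie1*, *Emcn* and *Cldn5*), *fat-1* sample 2 of *Kdr* and *Egfl7*, *fat-1* sample 1 of *Vwf* and WT sample 3 of *Pecam1*. *fat-1* sample 1 had the lowest level of 5 genes. The median deviation of the 10 genes from their means, in log2 units, was 0.25 in WT sample 2 and −0.25 in *fat-1* sample 1, and between −0.09 and −0.01 in the other 4 samples. The sum of 8 fibroblast genes was likewise lowest in *fat-1* sample 1, at 1631 CPM, and was 5829 CPM in WT sample 2, below the 6269 CPM of *fat-1* sample 3. The part of these differences in cell content in the values of the endothelial genes was not tested.

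*Egfl7* encodes a protein that endothelial cells secrete into their matrix (chromosome 2, 26580014 to 26593120, plus strand), and it is the host of miR-126, an endothelial microRNA. The mature microRNA is shown because its gene has a row of its own in the *Egfl7* locus, with the seed (bases 2 to 8) in capitals, from RefSeq (GRCm38.p6, chr2:26591402-26591423, plus strand).
mmu-miR-126a-3p: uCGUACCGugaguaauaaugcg

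The row of *Mir126a* had 1 count in each of the 6 samples, and all 22 bases of the mature sequence lie in annotated *Egfl7* exons. Reads of that row cannot be told apart from reads of the host, and the row gives no level of the mature microRNA. The *Egfl7* locus had 9.671, 12.15 and 11.99 CPM in the *fat-1* pools, against 8.792, 10.46 and 10.18 CPM in the WT pools. *Egfl7* was the gene of the list with the most positive log2 fold change, 0.20 (standard error 0.14; edgeR quasi-likelihood adjusted *p* = 1), and the genotypes overlapped. Leaving out *fat-1* sample 1 gave 0.31, and leaving out WT sample 1 gave 0.13. The locus also held rows of *Dipk1b*, with 238, 209 and 273 counts in the *fat-1* pools, against 269, 326 and 27 in the WT pools, and of *Gm20532*, with 139 counts in WT sample 3 and 0 elsewhere. *Egfl7* exons share 264 bases with *Gm20532* and, on the opposite strand, 64 with *Agpat2*, so its counts are uncertain. The row with the symbol *Egfl7* alone had 782, 983 and 1199 counts in the *fat-1* pools, against 852, 776 and 685 in the WT pools, a log2 fold change of 0.39 (standard error 0.21).

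**Figure D3:**
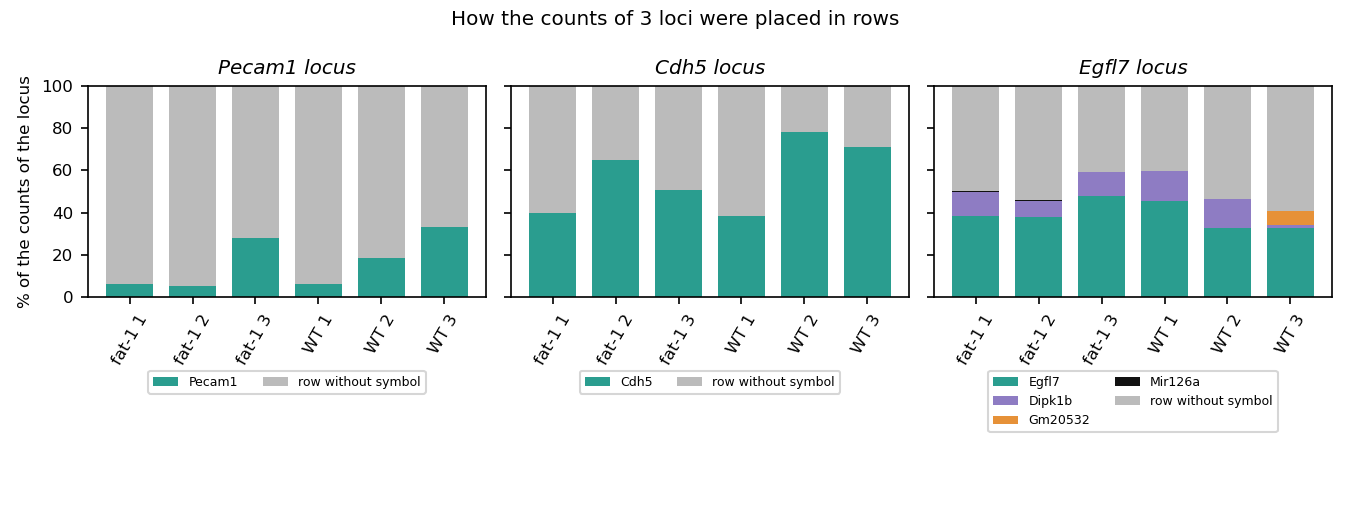
Share of the counts of the *Pecam1*, *Cdh5* and *Egfl7* loci (percent, y axis from 0 to 100) that each row of the locus holds in each of the 6 samples. The *Pecam1* row with the symbol holds 5.21% to 33.2%, the *Cdh5* row 38.4% to 78.1%, and the shares vary within both genotypes.

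The loci of *Pecam1*, *Cdh5* and *Egfl7* had more than 1 row, while the other 7 genes had a single row. The *Pecam1* row with the symbol had 798, 1210 and 5366 counts in the *fat-1* pools, against 834, 3312 and 8109 in the WT pools, a 10.4-fold range in CPM, against 1.99-fold for its locus sum. It held 13.2% ± 13.0 and 19.3% ± 13.5 of the locus (SD, *n* = 3; two-sided exact permutation *p* = 0.6). The *Cdh5* row with the symbol held 52.0% ± 12.5 of its locus in *fat-1* pools and 62.5% ± 21.2 in WT pools (exact permutation *p* = 0.5). In both loci the remaining counts were in a row without a symbol, and GENCODE has no other gene that shares exonic bases with *Pecam1* or *Cdh5*. The log2 fold changes of the rows with the symbol were −0.72 (standard error 1.03) for *Pecam1* and −0.53 (standard error 0.33) for *Cdh5*. By rows with the symbol, 8 of the 10 genes had a log2 fold change below 0, beside 48.8% of 30683 rows, and 0 passed at the unadjusted threshold, beside 2.21% of rows. In 2 of them, *Tek* and *Tie1*, the *fat-1* samples were all lower, beside 2.70% of rows, and in 0 all higher, beside 2.57%. At the unadjusted threshold the *Egfl7* row passed without *fat-1* sample 1, higher in *fat-1* (log2 fold change 0.54), beside 3.04% of rows. Without sample 1 of both genotypes the *Egfl7* row also passed (0.62), beside 2.85%. The *Cdh5* row passed without WT sample 1, lower in *fat-1* (−0.79), beside 2.4%.

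Of 25 further genes of blood endothelium, 23 had a log2 fold change below 0, beside 49.4% of loci, with a median of −0.20. In 8 of them, *Erg*, *Esam*, *Mmrn2*, *Clec14a*, *Ptprb*, *Ushbp1*, *Cd93* and *Adgrl4*, all *fat-1* samples were below all WT samples, beside 2.36% of loci, and WT sample 2 was the highest in all 8. By edgeR's quasi-likelihood test, 0 of the 25 genes passed after adjustment, and 4 were lower at the unadjusted threshold, beside 0.661% of loci. Without WT sample 2, 18 of the 25 were below 0, the median was −0.096 and 0 genes passed at the unadjusted threshold. Without *fat-1* sample 1, 18 were below 0 and 2 passed, all that passed being lower, beside 1.05% of loci lower in that fit. Without *fat-1* sample 3, 0 passed, and without *fat-1* sample 2, WT sample 1 or WT sample 3, 1, 3 and 5 passed, beside 0.706%, 0.678% and 1.24% of loci. By edgeR's exact test, 1 of the 4 genes, *Clec14a*, still passed, beside 0.623% of loci lower in that fit, and *Erg*, *Mmrn2* and *Cd93* did not. DESeq2 gave 5 of the 25 genes at the unadjusted threshold, beside 0.856% of loci lower. A block for the replicate number gave 4, beside 1.07%, and the leukocyte genes as a covariate gave 6, beside 1.17%.

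Of these 4 genes, *Erg* is a regulator and the other 3 act at the cell surface and its matrix. *Erg*, the ETS factor that maintains endothelial genes, had 19.18, 20.52 and 18.70 CPM in the *fat-1* pools, against 21.74, 26.96 and 23.70 CPM in the WT pools (log2 fold change −0.31, standard error 0.12). *Clec14a* and *Cd93*, related lectin-domain receptors that bind the matrix protein of *Mmrn2*, had log2 fold changes of −0.58 (standard error 0.18) and −0.35 (standard error 0.12). *Mmrn2* itself had 37.28, 32.42 and 32.95 CPM in the *fat-1* pools, against 44.47, 49.02 and 37.86 CPM in the WT pools (log2 fold change −0.36, standard error 0.13). Unadjusted *p*-values ran from 0.0160 to 0.0372 for the 4 genes in this fit across all loci, and each adjusted *p*-value was 1. Not all genes of the list were lower. *S1pr1*, a receptor of sphingosine phosphate that lymphocytes share, had a log2 difference of 0.18 (standard error 0.33), with its highest values in *fat-1* sample 2 and WT sample 3, and *Plvap*, of the openings of capillaries, had a log2 difference of 0.0030 (standard error 0.37). *Icam2*, an adhesion molecule whose locus also holds *Ern1*, had the highest level of the list, 158.9 to 201.5 CPM, and *Eng*, a co-receptor of TGF-β, had 26.70 to 56.57 CPM, both overlapping between genotypes.

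**Figure D4:**
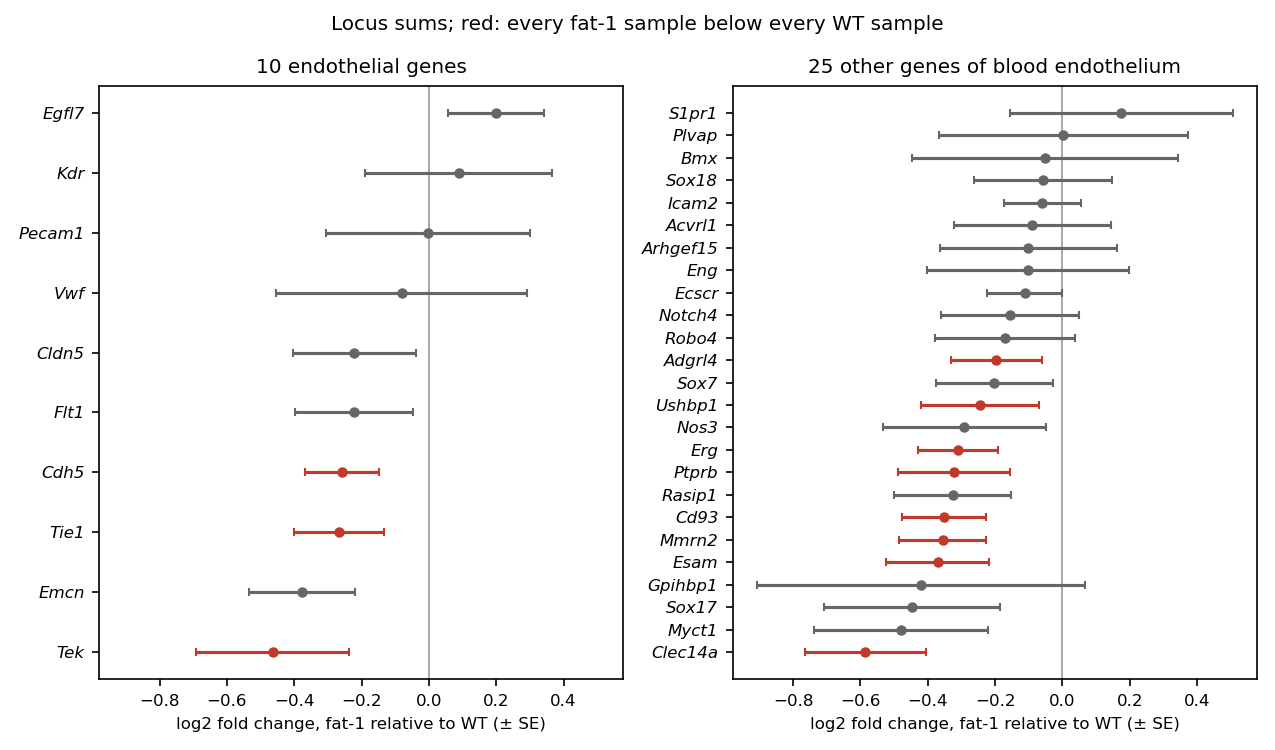
Log2 fold change of *fat-1* relative to WT with its standard error, from locus sums, for the 10 endothelial genes (left) and 25 other genes of blood endothelium (right), with genes whose *fat-1* samples all lie below the WT samples in red. Most points lie left of 0, 8 of 10 and 23 of 25, and 0 of them passed the test after adjustment.

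The ligands of the VEGF and TIE receptors overlapped between genotypes. Of 11 ligands and further receptors, 10 had a log2 fold change below 0, beside 49.4% of loci, with a median of −0.11. At the unadjusted threshold 0 passed, beside 1.14% of loci. In none did the samples of the genotypes lie apart, beside 2.36% of loci lower and 1.79% higher in *fat-1*. *Vegfa*, the ligand of VEGFR2, had 225.4, 223.7 and 200.2 CPM in the *fat-1* pools, against 240.2, 230.1 and 192.8 CPM in the WT pools, a log2 fold change of −0.03 (standard error 0.11). *Angpt1*, which activates TIE2, had at most 0.837 CPM, and *Angpt2*, which mostly opposes it, had 16.69 to 24.36 CPM. The co-receptor gene *Nrp2* ranged from 64.60 CPM in *fat-1* sample 1 to 165.1 CPM in *fat-1* sample 3. *Vegfb* and *Vegfd* share their loci with *Fkbp2* and *Pir*, so their locus sums are uncertain.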

How the data were processed

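RNA of mammary epithelial cells from 3 *fat-1* and 3 WT pools was sequenced, and genotype and replicate number came from the sample titles and column names. Paired reads had been mapped by HISAT2 (GRCm38) and transcripts assembled by StringTie, from which the authors deposited a matrix of estimated counts per row, whole and not normalized. The annotation and the step from coverage to counts are not given in the sources used here, nor whether strand was used, so overlapping genes are uncertain. Rows of the same assembled locus number were added together (5916 loci had more than 1 row). Samples held 204539059 to 232148824 counts, and the precision of depth was not compared with that of 3 samples per genotype.

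Loci and rows were tested over the whole matrix in R 4.3.3 with edgeR 4.0.16: filterByExpr, TMM, the quasi-likelihood test in its newer form, genotype as the only term, Benjamini–Hochberg adjustment and a threshold of 0.05. Standard errors were taken as the size of the log2 change divided by the square root of F. DESeq2 1.42.0 and edgeR's exact test were alternatives, beside other filters, scalings and designs and leaving out each sample. Exact permutation tests used log2(CPM + 1). The fits recovered most known changes in simulated counts of low spread. Those changes were larger than those of the 10 locus sums, so the recovery of changes as small as these was not tested. The simulated spread was also lower than that of the data (common biological coefficient of variation 0.3016), at which recovery is not reported here. Positions and exonic lengths are from GENCODE M21, and sequences from RefSeq (GRCm38.p6), of which 7 of the 10 genes had a start window. The members, gene lists and tests were chosen with earlier results of these data known. From each further list, the 3 genes of highest level and those at the unadjusted threshold were to be named, of which 1 is not reported here. Others named were chosen after their values were seen. Plots came from matplotlib 3.10.9 under Python 3.11.15.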

Additional observations from a re-analysis of the deposited data

How the results depend on the processing

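After adjustment, DESeq2 gave 8 loci and 93 rows and edgeR's exact test 6 loci and 31 rows, against 0 and 0 by the quasi-likelihood test, and with any single sample dropped there were 0 to 1 loci and 0 to 2 rows, with 0 of the 10 genes under any of these settings. At the unadjusted threshold, 628 loci (2.61%) passed with the leukocyte genes as a covariate, *Cdh5* and *Emcn* among them, against 274 (1.14%). Without a filter, 579 of 36672 loci (1.58%) passed. With WT sample 3 left out 542 (2.19%) passed, and without *fat-1* sample 1 482 (1.96%). *Emcn* also passed without sample 1 of both genotypes, beside 1.51% of loci. The median of the 10 genes kept its sign throughout, between −0.26 and −0.12 for locus sums and between −0.33 and −0.16 for rows with a sample left out. Without sample 1 of both genotypes the median for rows was −0.41. The replicate numbers did not pair the samples (correlations of same-numbered deviations 0.799, −0.164 and 0.132), and with the replicate block the median was −0.23 and 376 loci passed at the unadjusted threshold. The signs of 3 genes near 0 turned. *Pecam1* was 0.0060 with the replicate block, 0.02 without replicate 1 of both genotypes (chosen after seeing the data) and between −0.20 and 0.31 with a sample left out, *Kdr* −0.016 with the covariate and between −0.084 and 0.31, and *Vwf* between −0.58 and 0.21. The *Pecam1* row lay between −2.03 and 0.34 and its share of the locus between −13.6 and 0.852 percentage points, turning without WT sample 3. The cause was not tested. On deposited totals, 2 rather than 3 genes of the list did not overlap.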

Other observations

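Genes of lymphatic vessels varied widely over the samples and overlapped between genotypes. *Lyve1*, a hyaluronan receptor of lymphatic endothelium and some macrophages, had 15.32, 35.49 and 24.06 CPM in the *fat-1* pools, against 4.361, 6.198 and 30.25 CPM in the WT pools. WT samples 1 and 2 were below all others and WT sample 3 was among the highest, and the log2 fold change of *Lyve1* was 0.88 (standard error 0.76; edgeR quasi-likelihood adjusted *p* = 1). *Prox1*, the transcription factor that sets lymphatic identity, was steady at 3.305 to 4.584 CPM, and *Pdpn*, shared with fibroblasts and basal epithelium, lay between 309.8 and 675.2 CPM. *Reln* had 8.874 to 22.73 CPM. Of the 6 lymphatic genes, 4 had a log2 fold change above 0 and 2 below, beside 49.4% of loci below 0. At the unadjusted threshold 0 passed, beside 1.14% of loci.

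Of 11 arterial and venous genes, 7 had a log2 fold change below 0, beside 49.4% of loci, with a median of −0.17. At the unadjusted threshold 0 passed, beside 1.14% of loci. *Ephb4*, of veins, had 40.26, 18.83 and 32.80 CPM in the *fat-1* pools, against 46.42, 31.54 and 19.63 CPM in the WT pools, and within each genotype its order of samples was that of the summed epithelial genes. *Unc5b* had 45.87 to 64.30 CPM and *Efnb2*, of arteries, whose locus also holds *Gm45074*, 44.69 to 59.32 CPM. *Vcam1*, an adhesion molecule for leukocytes, was lowest in sample 1 of both genotypes, at 61.36 and 74.98 CPM, and between 116.1 and 127.1 CPM elsewhere. Of the 7 pericyte genes, 6 were tested, 3 with a log2 fold change below 0 and 0 past the unadjusted threshold, beside the same 49.4% and 1.14% of loci. *Notch3*, of the pericyte and muscle layer, ranged from 19.81 to 79.42 CPM and *Pdgfrb* from 17.38 to 66.48 CPM. Within each genotype the order of samples by *Notch3* was that of the summed epithelial genes. With a mean of 48.11 CPM it weighs most in the pericyte sum. *Pdgfrb*, *Rgs5*, *Cspg4*, *Kcnj8* and *Abcc9* were instead lowest in *fat-1* sample 1. *Rgs5*, a gene of pericytes, had 13.08, 23.46 and 16.88 CPM in the *fat-1* pools, against 14.45, 28.01 and 18.72 CPM in the WT pools, highest in WT sample 2 like *Tek*, while *Higd1b* had at most 0.0326 CPM.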
